A study of Mus musculus with 36 samples.

Results

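Described here are 10 genes that carry fatty acids into muscle and store or release them as triglyceride. They were followed through mouse soleus and extensor digitorum longus (EDL) of wild types and of animals labelled as lacking estrogen-related receptors. The genes were chosen by name and role, with earlier results of these data known, so the list is not blind to these data. They are 10 of the 17873 genes with a value in any library, and all 10 were measured in all 36 libraries and passed the filter on low values. Plin2 has more than one row in the deposited table. The row with a value in 36 libraries was used, while another has a value in 3 libraries (-3.77 to -2.67), and the table does not say what separates them.

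Soleus is a slow, oxidative muscle and EDL a fast, glycolytic one. The mice carried floxed receptor genes on a C57BL/6JBom background (backcrossed for at least 10 generations), and Cre recombinase came from the human alpha-skeletal actin promoter, which is active in muscle fibres, so the deletion is aimed at fibres and not at the other cells of the muscle. All animals were males aged 1 year, fed chow and housed at 22 °C under 12 h light. Deletion classes were ERRalpha alone, ERRbeta with ERRgamma, and ERRalpha with ERRgamma, each beside its own wild-type littermates, with 3 biological replicates per muscle, class and genotype, or 12 groups of 3. "Knockout-labelled" is used because the reading of the column names as knockout or wild type comes from a mark for Cre and could not be checked for every class. Of the receptor genes, Esrra, which encodes ERRalpha, fell in the ERRalpha/ERRgamma class by 2.23 ± 0.12 in EDL and by 0.57 ± 0.12 in soleus on the log2 scale (SE), but in the ERRalpha class it differed by -0.19 ± 0.12 in EDL and 0.33 ± 0.12 in soleus, neither of which passed the test. Esrrg signal was called higher, not lower, in 3 of the 4 comparisons that involve a deletion named for ERRalpha/ERRgamma or ERRbeta/ERRgamma. It was also called higher in ERRalpha EDL (0.61 ± 0.15). Esrrb was called lower in ERRalpha/ERRgamma EDL (-1.60 ± 0.21), a class not named for it. In the ERRbeta/ERRgamma class Esrrb differed by -0.18 ± 0.21 in EDL and 0.28 ± 0.21 in soleus, neither called. A signal summed over a gene need not show the loss of an exon, so these values do not check the labels of the ERRalpha and ERRbeta/ERRgamma classes.

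Values are log2 signals that the authors quantile normalized, so the read totals are gone and the depth of each library is unknown. Between 13667 and 14951 genes were detected per library. A gene is called where the Benjamini-Hochberg adjusted p from limma is under 0.05 over all genes tested in that comparison (13270 to 13385 genes in the comparisons of 2 groups or muscles). Changes are knockout-labelled minus wild type, given ± SE with n = 3 libraries a group, and the spread of a group is given as ± SD. The library numbers follow the column order and are names only. In whole muscle, fewer cells of a type and less RNA per cell cannot be told apart.

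A fibre takes most of its fatty acids from lipoproteins and from albumin in the blood. Lipoprotein lipase, encoded by Lpl, frees fatty acids from circulating triglyceride on the capillary wall. The membrane protein CD36 and the transport protein FATP1, encoded by Slc27a1, help them across the membrane, and the heart-type binding protein FABP3 carries them through the cytosol. There they are either burnt in mitochondria or esterified, with DGAT1 and DGAT2 catalysing the last step of triglyceride synthesis, and packed in droplets coated by perilipins. Adipose triglyceride lipase, encoded by Pnpla2, starts the release from the droplet, and perilipin 5 is known in oxidative tissues for holding droplets close to mitochondria. ERRs are orphan nuclear receptors known as regulators of mitochondrial and fatty acid oxidation genes in muscle.

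The perilipin genes differ in what follows, and the DNA upstream of 3 of them is shown. Plin4 and Plin5 lie next to each other on the minus strand of chromosome 17, 1797 bp apart in the GENCODE annotation of GRCm38. Yet their signals moved apart in the ERRalpha/ERRgamma and ERRbeta/ERRgamma classes, which is why the stretches are shown. The 250 bases before the RefSeq start site are given 5′ to 3′ (GRCm38.p6), and capitals mark the letters TATAAG.
Plin5 (chr17:56117549-56117798, minus strand): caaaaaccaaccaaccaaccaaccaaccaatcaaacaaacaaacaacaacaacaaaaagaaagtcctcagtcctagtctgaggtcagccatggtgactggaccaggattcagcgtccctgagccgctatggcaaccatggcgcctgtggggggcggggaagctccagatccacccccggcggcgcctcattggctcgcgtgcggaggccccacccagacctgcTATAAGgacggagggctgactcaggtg
Plin4 (chr17:56109783-56110032, minus strand): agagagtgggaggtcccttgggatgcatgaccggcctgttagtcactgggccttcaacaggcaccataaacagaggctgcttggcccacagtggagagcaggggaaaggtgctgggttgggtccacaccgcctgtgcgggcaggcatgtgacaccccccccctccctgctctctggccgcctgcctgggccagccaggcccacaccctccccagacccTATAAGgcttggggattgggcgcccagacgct
Plin2 (chr4:86670060-86670309, minus strand): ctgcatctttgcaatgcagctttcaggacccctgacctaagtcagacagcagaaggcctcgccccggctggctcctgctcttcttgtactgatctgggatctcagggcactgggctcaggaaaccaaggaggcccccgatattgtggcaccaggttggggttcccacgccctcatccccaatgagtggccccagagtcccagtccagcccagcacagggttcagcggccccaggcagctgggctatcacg
The capitals begin 27 bases before the Plin5 start shown and 32 bases before that of Plin4, and the Plin2 stretch has none. RefSeq gives another Plin5 start, and the stretch before it (chr17:56117299-56117548) has none either. Windows of 300 bases (250 before and 50 after a start) were found for 7 of the 10 genes, all but Lpl, Dgat1 and Dgat2, which were therefore not searched. The windows found, 10 in all, were searched on both strands. TATAAG occurred in 2 of these windows and in 7.43% of 32851 RefSeq promoter windows of that length, and it was chosen after the sequences were seen. The ERR response element TCAAGGTCA, its looser form TNAAGGTCA, which includes it, and the direct repeat of AGGTCA with 1 base between, known for PPAR and RXR, occurred in 0 of the 10 windows, against 0.423%, 1.28% and 0.0396% of all windows. That says only that these letters are not in these windows.

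In wild-type muscle, 9 of the 10 genes were higher in soleus than in EDL (9 libraries each), where 30.8% of all genes tested were called higher. The difference was 2.71 ± 0.16 for Fabp3 (6.52-fold), 2.59 ± 0.18 for Dgat2 (6.02-fold), 2.08 ± 0.11 for Lpl (4.23-fold), 1.61 ± 0.11 for Cd36 (3.06-fold) and 1.55 ± 0.14 for Plin5 (2.92-fold). Slc27a1 (0.97 ± 0.10), Pnpla2 (0.73 ± 0.12), Plin2 (0.43 ± 0.095) and Plin4 (0.29 ± 0.060) followed, and Dgat1 was not called (0.20 ± 0.11, adjusted p = 0.12 by limma). The median over the 10 genes was 1.26, beside 0.077 over all genes tested. The differences thus ran from under 1.5-fold for Dgat1, Plin4 and Plin2 to over 6-fold for Dgat2 and Fabp3.

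The number in the column names, read as the animal's, ties a soleus to an EDL in 14 animals. Among the 7 wild-type animals of these, soleus was above EDL in 7 of 7 for each gene but Dgat1 (5 of 7). Within an animal the difference ranged from 2.37 to 3.37 for Fabp3 (median 2.72), from 2.28 to 3.44 for Dgat2 (median 2.64) and from 1.64 to 2.61 for Lpl (median 2.11). Among the 7 knockout-labelled animals it was above in 7 of 7 for each gene but Plin4 (5 of 7) and Dgat1 (3 of 7). So for 8 of the 10 genes soleus was the higher muscle in every knockout-labelled animal too. Counts and ranges within animals were made for the 10 genes alone, so the share of all genes with such a pattern is not known. Of the 7 animals of a genotype, 3 are of the ERRalpha, 3 of the ERRbeta/ERRgamma and 1 of the ERRalpha/ERRgamma class. In the knockout-labelled animals Fabp3 was higher in soleus by 2.69 to 2.98 in the ERRalpha class, 1.5 to 2.31 in the ERRbeta/ERRgamma class and 2.70 in the ERRalpha/ERRgamma animal. For Plin5 it was 1.61 to 2.32, 0.50 to 1.10 and 2.09. For neither gene did the knockout-labelled ERRalpha and ERRbeta/ERRgamma animals overlap, and the same held for Lpl, Cd36, Slc27a1, Dgat2, Pnpla2 and Plin4. The wild types of these classes did not overlap for Fabp3 either (2.72 to 3.37 and 2.37 to 2.64). Nor did they for Lpl (2.12 to 2.61 and 1.64 to 2.11) or Pnpla2 (0.73 to 0.84 and 0.32 to 0.69). For Plin5 the wild types did overlap (1.04 to 1.96 and 1.19 to 1.70), as they did for Cd36, Slc27a1, Dgat2 and Plin4.

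**Figure D1:**
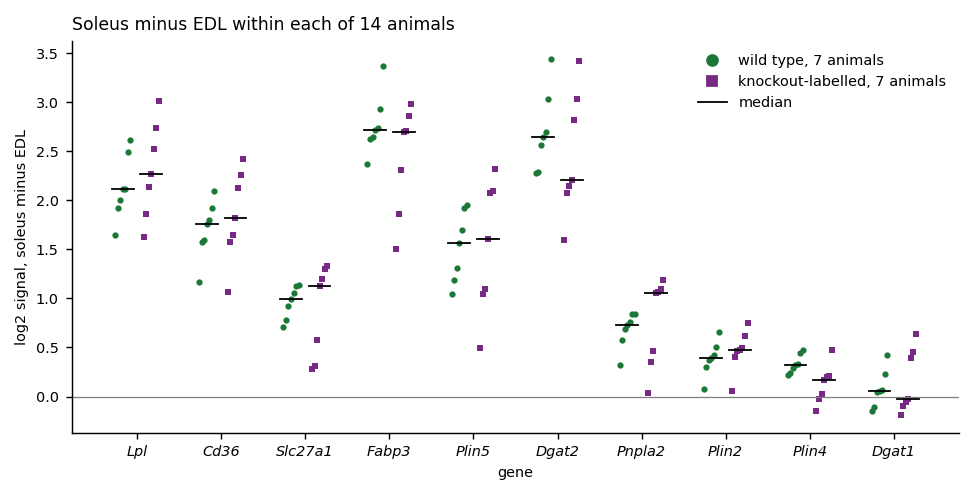
Log2 signal in soleus minus that in EDL of the same animal (y axis) for each gene (x axis), with circles for 7 wild-type and squares for 7 knockout-labelled animals and a line at each median. For Fabp3, Dgat2 and Lpl every animal lies above 0, and for Dgat1 the points lie on both sides of it.

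Knockout-labelled and wild-type libraries were then compared within each muscle and class, which asks how these genes differ with each deletion as labelled. In ERRalpha/ERRgamma EDL 7 of the 10 genes fell (6.95% of all genes tested were called lower), in ERRalpha/ERRgamma soleus 6 fell (5.86%), and in ERRbeta/ERRgamma soleus 6 fell (3.55%). In ERRbeta/ERRgamma EDL 1 gene fell, Lpl (0.158%). In the ERRalpha class none was called lower by limma in EDL (1.46%; 2 genes had an unadjusted p under 0.05) or in soleus (0.247%; 0 genes). None of the 10 was called higher by limma in any of the 6 comparisons, where 1.82%, 0.06% and 11.1% of all genes were in EDL and 0.464%, 3.16% and 6.84% in soleus (ERRalpha, ERRbeta/ERRgamma and ERRalpha/ERRgamma class in turn). The median change over the 10 genes was -1.11 in ERRalpha/ERRgamma EDL, -0.87 in ERRbeta/ERRgamma soleus and -0.72 in ERRalpha/ERRgamma soleus, beside medians over all genes tested of 0.13, 0.053 and 0.11. In the other 3 it was -0.47 (ERRbeta/ERRgamma EDL), -0.18 (ERRalpha EDL) and 0.077 (ERRalpha soleus), beside 0.034, 0.018 and -0.022. In both ERRalpha/ERRgamma comparisons the median of all genes lies over 0.1 above 0, so these falls are larger relative to it, and with the changes recentred on it the same 7 and 6 genes were called.

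Counted by overlap alone, all 3 knockout-labelled libraries lay below all 3 wild types for 3 of the 10 genes in ERRalpha EDL (9.42% of all genes with 6 values), 5 in ERRbeta/ERRgamma EDL (5.25%), 7 in ERRalpha/ERRgamma EDL (11.6%), 1 in ERRalpha soleus (8.99%), 7 in ERRbeta/ERRgamma soleus (8.86%) and 7 in ERRalpha/ERRgamma soleus (10.6%). They lay above for 2 genes in ERRalpha EDL (13.5%), Plin2 and Plin4, and for 1 in ERRalpha soleus (7.48%), Dgat1. In the other 4 comparisons they did for 0 genes, where 10.2% (ERRbeta/ERRgamma EDL), 26.4% (ERRalpha/ERRgamma EDL), 9.13% (ERRbeta/ERRgamma soleus) and 21.7% (ERRalpha/ERRgamma soleus) of all genes did.

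**Figure D2:**
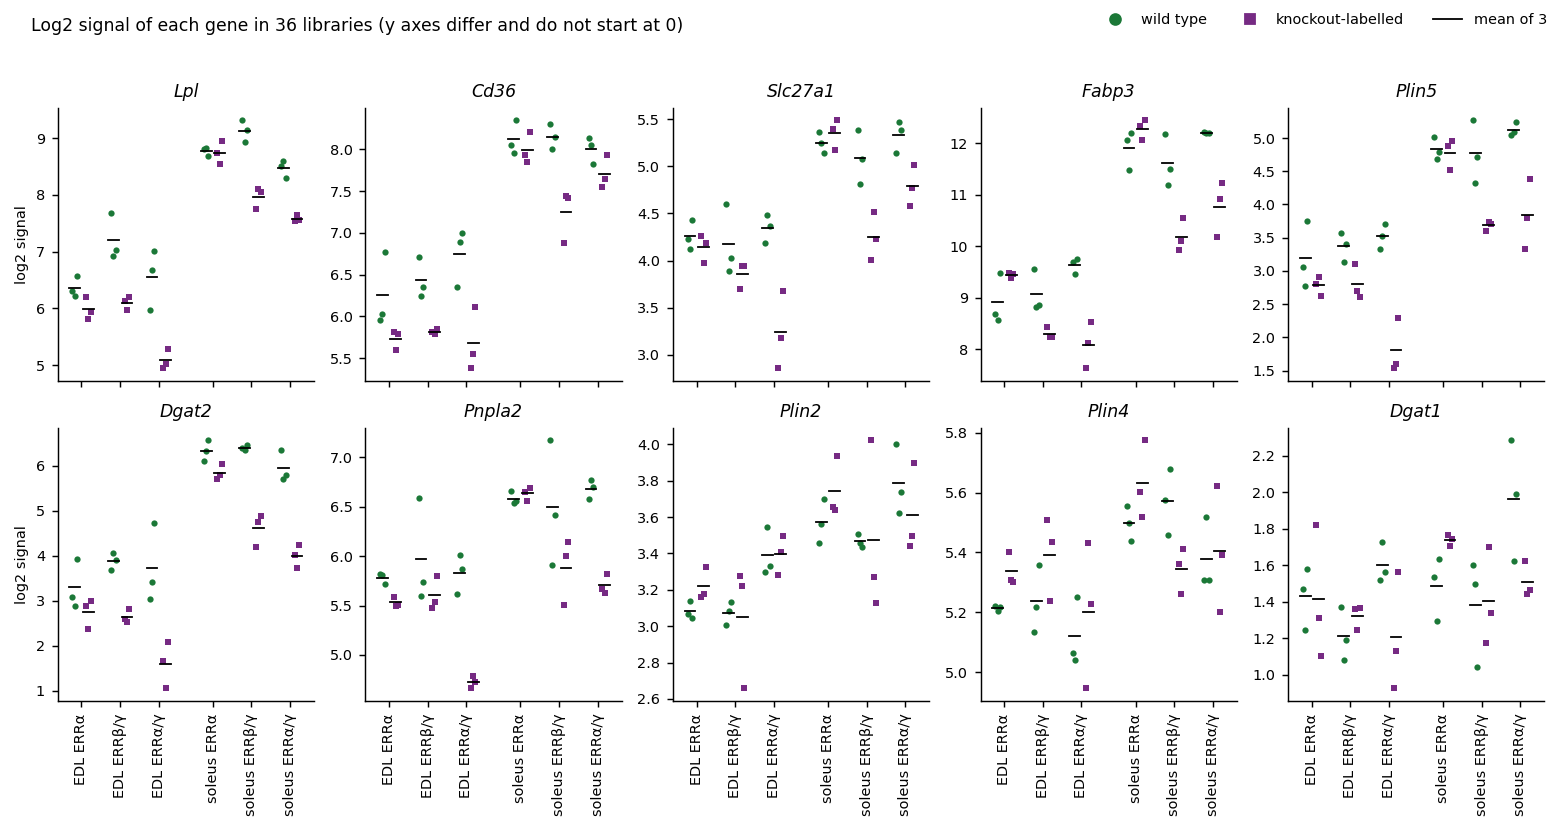
Log2 signal (y axis, own range per gene) in every library of the 12 groups (x axis), circles for wild type and squares for knockout-labelled, with a line at each mean of 3. In the ERRα/γ groups of EDL the squares of Lpl, Cd36, Slc27a1, Fabp3, Plin5, Dgat2 and Pnpla2 lie below all circles, while those of Plin2, Plin4 and Dgat1 mix with the circles.

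Lpl (chromosome 8, 68880491 to 68907448, plus strand) was the gene called in the most comparisons, 4 of 6. Within ERRalpha/ERRgamma EDL its log2 signal was 5.97, 6.68 and 7.0 in the wild-type libraries and 4.94, 5.03 and 5.29 in the knockout-labelled ones. The groups did not overlap, and the change was -1.47 ± 0.19, or 2.77-fold lower (adjusted p = 5.73e-07). Within ERRbeta/ERRgamma EDL it was 7.67, 6.93 and 7.03 against 6.13, 5.96 and 6.20, a fall of 2.16-fold (-1.11 ± 0.19, adjusted p = 0.00349). All knockout-labelled libraries were again below all wild types. In soleus of that class it was 9.31, 8.93 and 9.14 against 7.75, 8.10 and 8.06 (-1.16 ± 0.19, 2.23-fold lower), and in ERRalpha/ERRgamma soleus 8.51, 8.60 and 8.30 against 7.54, 7.64 and 7.56 (-0.89 ± 0.19, 1.85-fold lower). Neither pair overlapped. In the ERRalpha class the difference was -0.38 ± 0.19 in EDL, where all 3 knockout-labelled libraries lay below the wild types without a call (adjusted p = 0.336), and -0.03 ± 0.19 in soleus. The soleus wild types stood highest of the 12 groups with the ERRalpha soleus (means 8.47 to 9.13), and EDL of the ERRalpha/ERRgamma knockout-labelled animals lowest (5.08 ± 0.18).

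Lpl was also the gene whose wild types differed. Among the 3 wild-type groups of EDL the means were 6.36 ± 0.19 (ERRalpha class), 6.55 ± 0.53 (ERRalpha/ERRgamma) and 7.21 ± 0.40 (ERRbeta/ERRgamma), a range of 0.85 (limma moderated F, adjusted p = 0.0247, 2.13% of genes called). In soleus they were 8.77, 8.47 and 9.13, a range of 0.66 at the edge of the threshold (adjusted p = 0.04996, 11% of genes called). No other gene of the 10 was called in either. The ERRbeta/ERRgamma wild types were the highest in both muscles, so each class is set against its own littermates only. The EDL call is lost without EDL wild-type replicate 2 of the ERRalpha class or replicate 1 of the ERRbeta/ERRgamma class, or with the 9 libraries alone, and the soleus call in 13 of 21 alternatives.

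Cd36 (chromosome 5, 17781690 to 17888801, minus strand) fell in 2 comparisons. In ERRalpha/ERRgamma EDL its log2 signal was 6.36, 6.89 and 7.0 in wild types and 5.38, 5.55 and 6.11 in knockout-labelled libraries, without overlap (-1.07 ± 0.20, 2.1-fold lower, adjusted p = 0.00018). In ERRbeta/ERRgamma soleus it was 8.30, 8.0 and 8.14 against 6.88, 7.44 and 7.42 (-0.90 ± 0.20, adjusted p = 0.00493). The first of these knockout-labelled libraries was the lowest for Cd36 and the highest of all 36 for leukocyte markers (summed log2 signal of 12 markers 8.39, next highest 7.29). Without it the change was -0.72 and no longer called (adjusted p = 0.0586). In ERRalpha/ERRgamma soleus the values were 8.13, 8.05 and 7.83 against 7.54, 7.64 and 7.93. There the groups overlapped, and the difference of -0.30 ± 0.20 was not called, with an interval of -0.70 to 0.11 (95%).

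Slc27a1 (chromosome 8, 71568882 to 71587302, plus strand) had log2 signals of 4.19, 4.48 and 4.37 in the wild types of ERRalpha/ERRgamma EDL, and knockout-labelled libraries gave 2.86, 3.18 and 3.68. It fell 2.15-fold there (-1.11 ± 0.18, adjusted p = 3.26e-05), with no overlap. Within ERRbeta/ERRgamma soleus the log2 signals were 5.38, 4.81 and 5.08 against 4.0, 4.51 and 4.23, a fall of 1.79-fold (-0.84 ± 0.18, adjusted p = 0.00398). The fall in ERRalpha/ERRgamma soleus was the smallest of those called, from 5.14, 5.48 and 5.39 to 4.58, 4.77 and 5.01 (-0.55 ± 0.18, adjusted p = 0.043). That call was lost in 6 of 18 alternatives, among them leaving out knockout-labelled replicates 1 or 2 or wild-type replicates 2 or 3.

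Fabp3 (chromosome 4, 130308595 to 130315463, plus strand) ranged from a log2 signal of 7.63 in a knockout-labelled EDL to 12.45 in a soleus of the ERRalpha class. Each soleus library was above each EDL library. Within ERRalpha/ERRgamma EDL it was 9.70, 9.46 and 9.76 in wild types and 7.63, 8.12 and 8.53 in knockout-labelled libraries (-1.55 ± 0.27, 2.93-fold lower, adjusted p = 8.68e-05). In soleus of that class the wild types were almost equal, at 12.21, 12.20 and 12.21, and the knockout-labelled libraries were 10.17, 10.91 and 11.23 (-1.44 ± 0.27, 2.71-fold lower, adjusted p = 0.000397). In ERRbeta/ERRgamma soleus it was 12.19, 11.18 and 11.51 against 9.92, 10.11 and 10.54, the same size of change (-1.44 ± 0.27, adjusted p = 0.00125). None of these pairs of groups overlapped. In ERRbeta/ERRgamma EDL it was 9.57, 8.81 and 8.87 against 8.42, 8.24 and 8.23, without overlap but not called (-0.78 ± 0.27, adjusted p = 0.389). In the ERRalpha class the difference was positive and not called, 0.53 ± 0.27 in EDL, where the groups overlapped, and 0.37 ± 0.27 in soleus.

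Of Plin2, Plin4 and Plin5, which encode coat proteins of the droplet, only Plin5 was called in any knockout comparison. Plin5 (chromosome 17, 56111601 to 56117596, minus strand) was 3.33, 3.52 and 3.71 in wild-type ERRalpha/ERRgamma EDL and 1.53, 1.60 and 2.29 in knockout-labelled libraries, 3.28-fold lower (-1.71 ± 0.24, adjusted p = 3.46e-06). In soleus of that class it was 5.04, 5.09 and 5.25 against 3.33, 3.8 and 4.38 (-1.29 ± 0.24, 2.45-fold lower, adjusted p = 0.000355). Within ERRbeta/ERRgamma soleus the log2 signals were 5.27, 4.32 and 4.72 against 3.60, 3.74 and 3.71 (-1.08 ± 0.24, adjusted p = 0.00551). The 3 pairs did not overlap, and the last call was lost without wild-type replicate 1, the highest library. The difference in the remaining comparisons was -0.56 ± 0.24 (EDL, ERRbeta/ERRgamma), -0.41 ± 0.24 (EDL, ERRalpha) and -0.05 ± 0.24 (soleus, ERRalpha).

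Its neighbour Plin4 (chromosome 17, 56100591 to 56109803, minus strand), a coat protein of adipocytes and muscle, stayed within 4.95 and 5.77 in all 36 libraries. In ERRalpha/ERRgamma EDL Plin4 was 5.07, 5.04 and 5.25 in wild types and 4.95, 5.43 and 5.23 in knockout-labelled libraries (0.08 ± 0.10, interval -0.13 to 0.30). Over the 6 comparisons its differences ran from -0.23 ± 0.10 (soleus, ERRbeta/ERRgamma, adjusted p = 0.209) to 0.16 ± 0.10 (EDL, ERRbeta/ERRgamma). Within a library, the log2 signal of Plin5 minus that of Plin4 averaged -1.60 ± 0.12 for wild types and -3.39 ± 0.44 for knockout-labelled ERRalpha/ERRgamma EDL, and -0.25 ± 0.19 and -1.57 ± 0.66 in soleus (SD, n = 3). In the ERRbeta/ERRgamma class it averaged -1.87 ± 0.27 and -2.59 ± 0.21 in EDL, and -0.80 ± 0.44 and -1.66 ± 0.13 in soleus. Wild types and knockout-labelled libraries did not overlap in either muscle of these classes, but did in both muscles of the ERRalpha class. These within-library values show that the 2 neighbours moved apart in both muscles of the ERRalpha/ERRgamma and ERRbeta/ERRgamma classes.

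Plin2 (chromosome 4, 86648386 to 86670060, minus strand) encodes the coat protein found on droplets of most cell types. Within ERRalpha/ERRgamma EDL it was 3.30, 3.55 and 3.33 in wild types and 3.28, 3.41 and 3.50 in knockout-labelled libraries, a difference of 0.01 ± 0.16 (interval -0.33 to 0.34). The groups overlapped in 5 of the 6 comparisons. In ERRalpha EDL all 3 knockout-labelled libraries (3.16, 3.18 and 3.32) lay above the wild types (3.07, 3.14 and 3.04), by 0.14 ± 0.16, which was not called. In ERRbeta/ERRgamma soleus the first knockout-labelled library was the highest of all 36 (4.02, the others 3.27 and 3.13), and it was also the highest in leukocyte markers. Without it the difference was -0.27 (adjusted p = 0.428), and with it 0.01.

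The 2 enzymes of the last step of triglyceride synthesis differed. Dgat2 (chromosome 7, 99153658 to 99182719, minus strand) had the largest change of the 10 genes in each of the 3 comparisons with 6 or 7 calls. In ERRalpha/ERRgamma EDL it was 3.04, 3.41 and 4.71 in wild types and 1.67, 1.05 and 2.08 in knockout-labelled libraries, 4.35-fold lower (-2.12 ± 0.30, adjusted p = 4.3e-06). In soleus of that class it was 6.34, 5.69 and 5.78 against 4.01, 3.73 and 4.23, 3.86-fold lower (-1.95 ± 0.30, adjusted p = 3.01e-05). Within ERRbeta/ERRgamma soleus the log2 signals were 6.38, 6.34 and 6.46 against 4.19, 4.74 and 4.88 (-1.79 ± 0.30, 3.45-fold lower, adjusted p = 0.000404). In all 3 each knockout-labelled library lay below each wild type. Within ERRbeta/ERRgamma EDL it was 3.69, 4.05 and 3.89 against 2.59, 2.53 and 2.81, which did not overlap either and missed the threshold (-1.23 ± 0.30, adjusted p = 0.105). The difference was -0.54 ± 0.30 in ERRalpha EDL and -0.49 ± 0.30 in ERRalpha soleus.

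Dgat1 (chromosome 15, 76502015 to 76511953, minus strand) was not called in any of the 6. Within ERRalpha/ERRgamma EDL it was 1.52, 1.73 and 1.56 in wild types and 0.93, 1.13 and 1.56 in knockout-labelled libraries (-0.39 ± 0.18, adjusted p = 0.146). In soleus of that class it was 2.29, 1.62 and 1.99 against 1.62, 1.44 and 1.46 (-0.46 ± 0.18, adjusted p = 0.107), with each knockout-labelled library below each wild type by a narrow margin. Differences elsewhere ran from -0.02 ± 0.18 to 0.25 ± 0.18. The log2 signal of Dgat2 minus that of Dgat1 within a library averaged 3.97 ± 0.15 for wild types and 2.48 ± 0.25 for knockout-labelled ERRalpha/ERRgamma soleus, and 2.12 ± 0.90 and 0.39 ± 0.43 in EDL (SD, n = 3). In ERRbeta/ERRgamma it averaged 5.01 ± 0.35 and 3.20 ± 0.30 in soleus, and 2.66 ± 0.33 and 1.32 ± 0.11 in EDL. In ERRalpha soleus it averaged 4.84 ± 0.24 and 4.11 ± 0.18. None of these pairs of groups overlapped, while those of ERRalpha EDL did (1.86 ± 0.42 and 1.34 ± 0.48).

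Pnpla2 (chromosome 7, 141455198 to 141460743, plus strand), the lipase of the first step of release, was called only in the ERRalpha/ERRgamma class. In EDL it was 5.62, 6.01 and 5.87 in wild types and 4.66, 4.79 and 4.73 in knockout-labelled libraries, 2.16-fold lower (-1.11 ± 0.21, adjusted p = 0.000245). In soleus it was 6.57, 6.77 and 6.70 against 5.66, 5.63 and 5.82 (-0.98 ± 0.21, 1.97-fold lower, adjusted p = 0.00165). Both groups were tight and well apart. In ERRbeta/ERRgamma soleus the wild types spread widely, at 7.17, 5.91 and 6.42, and overlapped the knockout-labelled libraries at 5.51, 6.00 and 6.15 (-0.62 ± 0.21, adjusted p = 0.077). Without wild-type replicate 2 that difference was called (-0.91, adjusted p = 0.0068).

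**Figure D3:**
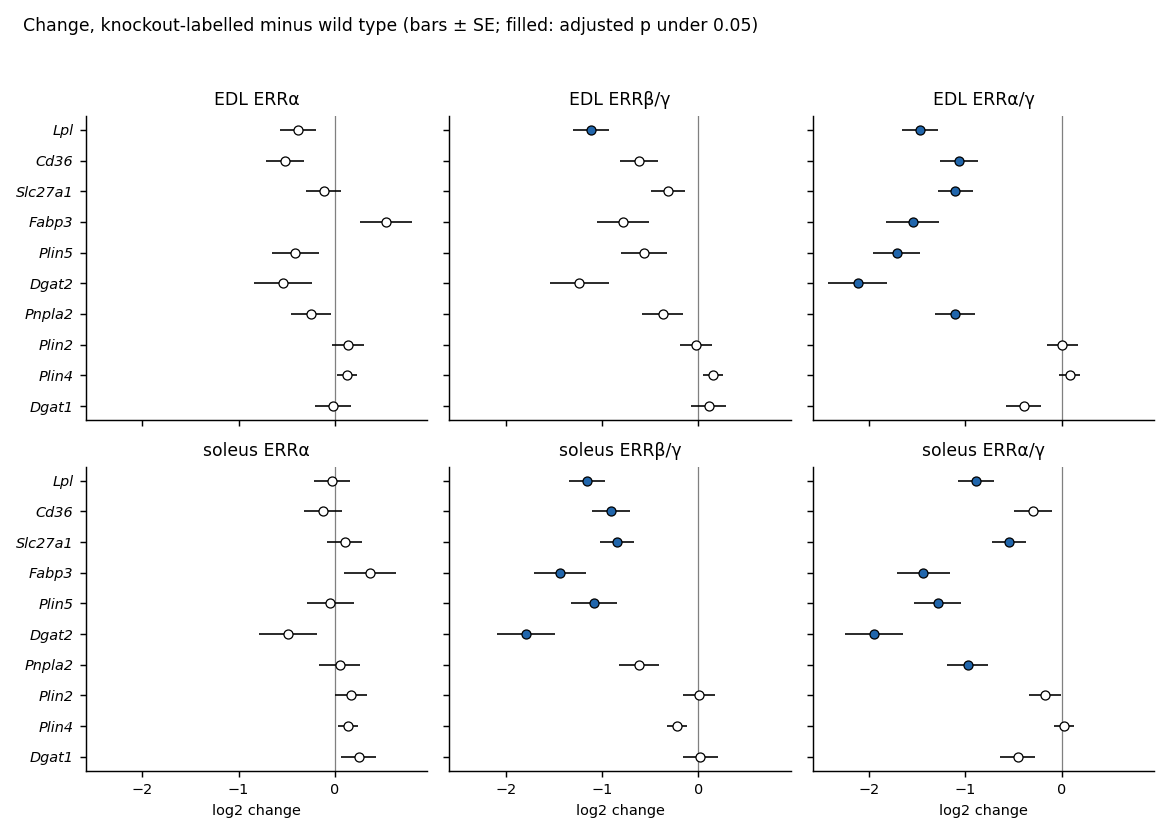
Change in log2 signal (x axis, knockout-labelled minus wild type, bars ± SE, n = 3 a group) of each gene (y axis) in the 6 comparisons, filled where the adjusted p is under 0.05. Filled points lie between -2.12 and -0.55, and Plin2, Plin4 and Dgat1 are open in every panel.

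No gene of the 10 was called in the ERRalpha class by limma. In ERRalpha EDL Cd36 was 5.95, 6.03 and 6.77 in wild types and 5.81, 5.6 and 5.78 in knockout-labelled libraries, without overlap or call (-0.52 ± 0.20, adjusted p = 0.175). Dgat2 was 3.07, 2.88 and 3.92 against 2.89, 2.38 and 2.99 there, and the groups overlapped. In ERRalpha soleus Dgat2 was 6.11, 6.33 and 6.56 against 5.70, 5.80 and 6.03, each knockout-labelled library below each wild type, without a call (adjusted p = 0.616). Fabp3 was 12.06, 11.49 and 12.21 against 12.34, 12.07 and 12.45 in that muscle, with overlap.

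The change of a gene was then compared between muscles within a class, and 0 of the 10 genes were called in the ERRalpha class (0.0151% of all genes), 0 in the ERRbeta/ERRgamma class (0.21%) and 0 in the ERRalpha/ERRgamma class (2.07%), by limma. At an unadjusted p under 0.05 there were 0, 2 and 3. The interval of the difference is wide for each gene. For Cd36 in the ERRalpha/ERRgamma class, which fell in EDL and was not called in soleus, the soleus change minus the EDL change was 0.77 ± 0.28 (interval 0.20 to 1.35, adjusted p = 0.218). For Dgat2 it was 0.17 ± 0.43 (-0.71 to 1.05) and for Fabp3 0.11 ± 0.38 (-0.67 to 0.90).

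Between classes, each against its own wild types, the change in EDL was more negative in the ERRalpha/ERRgamma than in the ERRalpha class for 5 of the 10 genes (3.48% of all genes called lower). These were Fabp3 (-2.08 ± 0.38), Dgat2 (-1.58 ± 0.43), Plin5 (-1.31 ± 0.34), Lpl (-1.09 ± 0.26) and Slc27a1 (-0.99 ± 0.26). Against the ERRbeta/ERRgamma class 1 gene differed in EDL, Plin5 (-1.15 ± 0.34, adjusted p = 0.0358, 4.06% of all genes called lower), and between the ERRbeta/ERRgamma and ERRalpha classes 0 did (0.415% in either direction; 2 of the 10 at an unadjusted p under 0.05). In soleus the ERRalpha/ERRgamma change was more negative than the ERRalpha change for 4 genes (2.93%), Fabp3 (-1.80 ± 0.38), Dgat2 (-1.46 ± 0.43), Plin5 (-1.24 ± 0.34) and Pnpla2 (-1.03 ± 0.30). The ERRbeta/ERRgamma change was more negative than the ERRalpha change for 2 (0.442%), Fabp3 (-1.80 ± 0.38) and Lpl (-1.13 ± 0.26). Between the ERRalpha/ERRgamma and ERRbeta/ERRgamma classes 0 of the 10 were called in soleus (1.2% in either direction; 1 at an unadjusted p under 0.05), with intervals as wide as -0.79 to 0.79 for Fabp3 and -1.04 to 0.72 for Dgat2. Fabp3 in EDL, against the ERRalpha class, and Fabp3 in soleus, ERRalpha/ERRgamma against ERRalpha, were called under every alternative run, and the other 10 of these 12 calls were lost under at least 3 of 24.

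**Figure D4:**
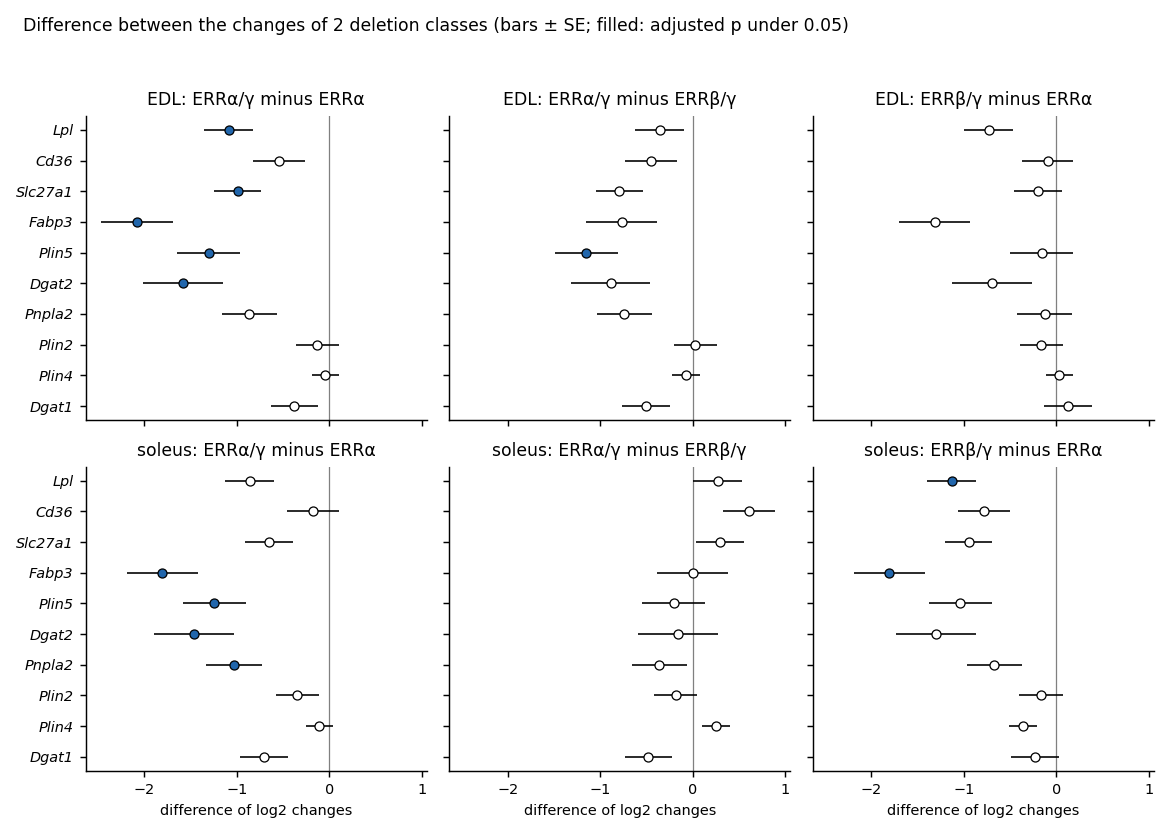
Difference between the log2 changes of a pair of deletion classes (x axis, bars ± SE) for each gene (y axis) in EDL (top) and soleus (bottom), filled where the adjusted p is under 0.05. Fabp3 is filled in 3 panels, at -2.08, -1.80 and -1.80, and Plin2, Plin4 and Dgat1 are open in all 6.

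Markers of other cells were set beside these changes, since fat cells express Lpl, Cd36, Dgat2 and Pnpla2 and capillaries express Cd36. All 10 fat cell markers were detected, Adipoq, the adipocyte hormone adiponectin, in every library. Adipoq was highest in 3 libraries of the ERRalpha/ERRgamma class, wild-type soleus replicate 1 (5.97), knockout-labelled soleus replicate 3 (5.08) and wild-type EDL replicate 3 (5.02), the next being 3.67. In EDL of that class it was 2.14 to 5.02 in wild types and 0.82 to 3.31 in knockout-labelled libraries (-1.75 ± 1.0, not called). There 1 of 10 fat markers was called, Lipe, which fell, beside 6.95% of all genes tested. The summed log2 signal of the 10 markers was 7.63 to 8.59 in those wild types and 7.59 to 8.24 in the knockout-labelled libraries. That sum follows Fabp4, which alone was 7.48 to 8.15 and 7.40 to 8.03. The median change of the 10 fat markers was -0.87 there (all genes 0.13). Cidec, a droplet protein of fat cells, was 0.20 to 3.40 in wild types and -1.25 to 1.26 in knockout-labelled libraries, and the adipocyte perilipin Plin1 -0.44 to 2.82 and -1.54 to 0.87, both with overlap and not called. Without the 3 libraries the same 7 genes were called lower in that comparison, with Dgat2 at -1.62, Lpl at -1.24 and Plin5 at -1.62. In ERRalpha/ERRgamma soleus the summed signal was 8.09 to 9.47 against 8.20 to 8.93, and without the 3 libraries the same 6 genes were called, Dgat2 at -1.87. Within ERRbeta/ERRgamma soleus the sums were 7.63 to 7.96 and 7.39 to 8.17. Of the 10 fat markers 1 fell, Adig (-2.76 ± 0.66), beside 3.55% of all genes. The median change of the fat markers was -0.16 there, 0.25 in ERRalpha/ERRgamma soleus, -0.11 in ERRbeta/ERRgamma EDL, -0.69 in ERRalpha EDL and -0.85 in ERRalpha soleus. In ERRbeta/ERRgamma EDL, with no library of its own left out, Dgat2 was then called as well as Lpl. There the sums of the fat markers did not overlap, 7.43 to 7.60 in wild types and 7.05 to 7.25 in knockout-labelled libraries. This sum too follows Fabp4, which alone was 7.25 to 7.39 and 6.90 to 7.06. Adipoq differed by -0.23 ± 1.0 and Lipe by 0.03 ± 0.22 in that comparison, neither called. The part of fat cells in the fall of Lpl was not tested.

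Of 12 endothelial markers 3 fell in ERRalpha/ERRgamma EDL (Flt1, Kdr and Eng, by 0.63, 0.60 and 0.58), where 6.95% of all genes tested fell. Gpihbp1, which holds lipoprotein lipase on the capillary wall, fell there by 0.54 ± 0.16. The summed endothelial signal was 6.61 to 6.91 in wild types and 6.31 to 6.76 in knockout-labelled libraries. In soleus of that class 1 of 12 fell (Tie1, beside 5.86% of all genes), with sums of 7.18 to 7.23 and 6.91 to 7.17. In ERRbeta/ERRgamma soleus 0 of 12 was called by limma (3.55% of all genes fell), with sums of 6.23 to 6.44 and 5.99 to 6.43. The part of these cells in the changes of Lpl and Cd36 was not tested. None of 12 leukocyte markers was called by limma in the 6 comparisons, but their median change was 1.36 in ERRbeta/ERRgamma soleus (all genes 0.053), where 6 of the lipid genes fell, and 0.75 in ERRalpha/ERRgamma soleus (all genes 0.11). Their sums were 4.84 to 6.6 in wild types and 5.32 to 8.39 in knockout-labelled libraries of the former. In the latter they were 6.11 to 6.64 and 6.91 to 7.29, without overlap. Apart from the values given without the library highest in these markers, their part in the falls was not tested. Slow fibre markers are high in soleus, as 9 of the 10 lipid genes are. In ERRalpha/ERRgamma EDL, the comparison with 7 lower lipid genes, 5 of 8 rose (11.1% of all genes tested did) and 1 fell (6.95%). The summed slow fibre signal overlapped there, at 4.89 to 6.67 in wild types and 4.66 to 7.17 in knockout-labelled libraries. Within ERRbeta/ERRgamma EDL, where Lpl fell, 2 of 8 slow fibre markers fell (0.158% of all genes were called lower). Their sums there did not overlap, 6.57 to 6.69 in wild types and 4.41 to 5.38 in knockout-labelled libraries. Summed muscle fibre markers (Acta1, Ckm, Des, Mb, Ttn, Tcap) were lower in knockout-labelled libraries of the ERRalpha/ERRgamma and ERRbeta/ERRgamma classes, without overlap. In the former they were 14.24 to 14.26 (wild types 14.27 to 14.43) in EDL and 14.45 to 14.54 (14.62 to 14.67) in soleus. In the latter they were 14.29 to 14.34 (14.38 to 14.38) and 14.53 to 14.65 (14.70 to 14.77). They overlapped in the ERRalpha class. The part of fibres or fibre types in the changes of the lipid genes was not tested.

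In ERRbeta/ERRgamma soleus, the calls rest on the spread estimated over all 36 libraries. Fitted on its 6 libraries alone, 0 of the 10 genes were called (7 at an unadjusted p under 0.05), with Dgat2 nearest at an adjusted p of 0.0542, and 4 genes were called in all, while 7 of 10 in ERRalpha/ERRgamma EDL and 6 of 10 in ERRalpha/ERRgamma soleus were called by the same fit. In ERRbeta/ERRgamma EDL the same fit called Dgat2 (adjusted p = 0.0435) in place of Lpl (adjusted p = 0.178).

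Other genes of the pathway were counted from lists drawn up by function. Of all genes tested, 6.95% fell and 11.1% rose in ERRalpha/ERRgamma EDL, and 5.86% and 6.84% in soleus of that class. In ERRbeta/ERRgamma soleus 3.55% fell and 3.16% rose. In mitochondrial fatty acid oxidation, 18 of 18 genes fell in ERRalpha/ERRgamma EDL (median change -1.08, all genes 0.13), 17 of 18 in soleus of that class (-0.71) and 17 of 18 in ERRbeta/ERRgamma soleus (-0.72). None was called in the other 3 by limma. The thiolase Acaa2 changed by -1.70 ± 0.13, -1.24 ± 0.13 and -1.03 ± 0.13 in these 3 comparisons. Acsl1, an enzyme that activates fatty acids to their CoA esters, fell in soleus of the ERRbeta/ERRgamma (-1.14 ± 0.17) and ERRalpha/ERRgamma (-0.63 ± 0.17) classes. Vldlr, the receptor for very low density lipoprotein, rose in EDL (0.77 ± 0.15) and soleus (0.62 ± 0.15) of the ERRalpha/ERRgamma class. Among 17 tested genes of uptake, binding and lipase handling, 2 fell and 1 rose in that EDL, and 3 fell and 1 rose in that soleus.

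Of 11 other genes of triglyceride synthesis none was called in EDL of any class by limma. Within ERRbeta/ERRgamma soleus 3 fell (3.55% of all genes tested). These were the acyltransferases Agpat2 (-1.05 ± 0.24) and Agpat3 (-0.40 ± 0.099), and Gpam (-0.84 ± 0.23), which catalyses the first step of glycerolipid synthesis. In ERRalpha/ERRgamma soleus Agpat3 (-0.46 ± 0.099) and Agpat9 (-1.0 ± 0.24) fell (5.86% of all genes). The phosphatidate phosphatase Lpin3 (0.73 ± 0.20) rose there (6.84%). Among 15 droplet coat and assembly genes 3 rose (11.1% of all genes) and 1 fell (6.95%) in ERRalpha/ERRgamma EDL. In soleus of that class 1 rose (6.84%) and 2 fell (5.86%), and 2 fell in ERRbeta/ERRgamma soleus (3.55%). In ERRbeta/ERRgamma EDL 1 fell (0.158%), and 1 rose in ERRalpha EDL (1.82%). Those that rose in ERRalpha/ERRgamma EDL were Plin3, Bscl2 (0.51 ± 0.14), which encodes the droplet assembly protein seipin, and Spast (0.26 ± 0.086). Fitm2, an endoplasmic reticulum protein of droplet formation, fell in the 3 comparisons where Dgat2 fell (-0.69 ± 0.096, -0.43 ± 0.096 and -0.42 ± 0.096 in ERRalpha/ERRgamma EDL, ERRbeta/ERRgamma soleus and ERRalpha/ERRgamma soleus). Plin3, the coat protein of small droplets, rose in EDL of the ERRalpha (1.22 ± 0.20) and ERRalpha/ERRgamma (1.01 ± 0.20) classes, and in ERRbeta/ERRgamma soleus it fell (-0.73 ± 0.20, with overlapping groups). Among 10 other release genes, Abhd5, the activator of the PNPLA2 lipase, fell in ERRalpha/ERRgamma EDL (-0.41 ± 0.11), as did the hormone-sensitive lipase Lipe (-0.72 ± 0.22). In ERRbeta/ERRgamma soleus Mgll, which splits monoglyceride, fell (-0.70 ± 0.18). G0s2, an inhibitor of the PNPLA2 lipase, was not called in any of the 6.

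Of the nuclear receptors, Ppara, a regulator of fatty acid genes, fell where Plin5 and Dgat2 fell: by 1.64 ± 0.17 in ERRalpha/ERRgamma EDL, by 1.06 ± 0.17 in ERRalpha/ERRgamma soleus, and by 0.75 ± 0.17 in ERRbeta/ERRgamma soleus. Of 9 other genes known as PPAR targets 2, 1 and 4 fell in these comparisons, where 6.95%, 5.86% and 3.55% of all genes tested fell. In the second 1 rose (6.84%). Acot1, an acyl-CoA thioesterase, fell by 2.72 ± 0.83 in ERRalpha/ERRgamma EDL and by 4.13 ± 0.83 in ERRbeta/ERRgamma soleus. Pdk4 and Angptl4 were not called in any of the 6. The part of Ppara in the falls of Plin5 and Dgat2 was not tested.

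**Figure D5:**
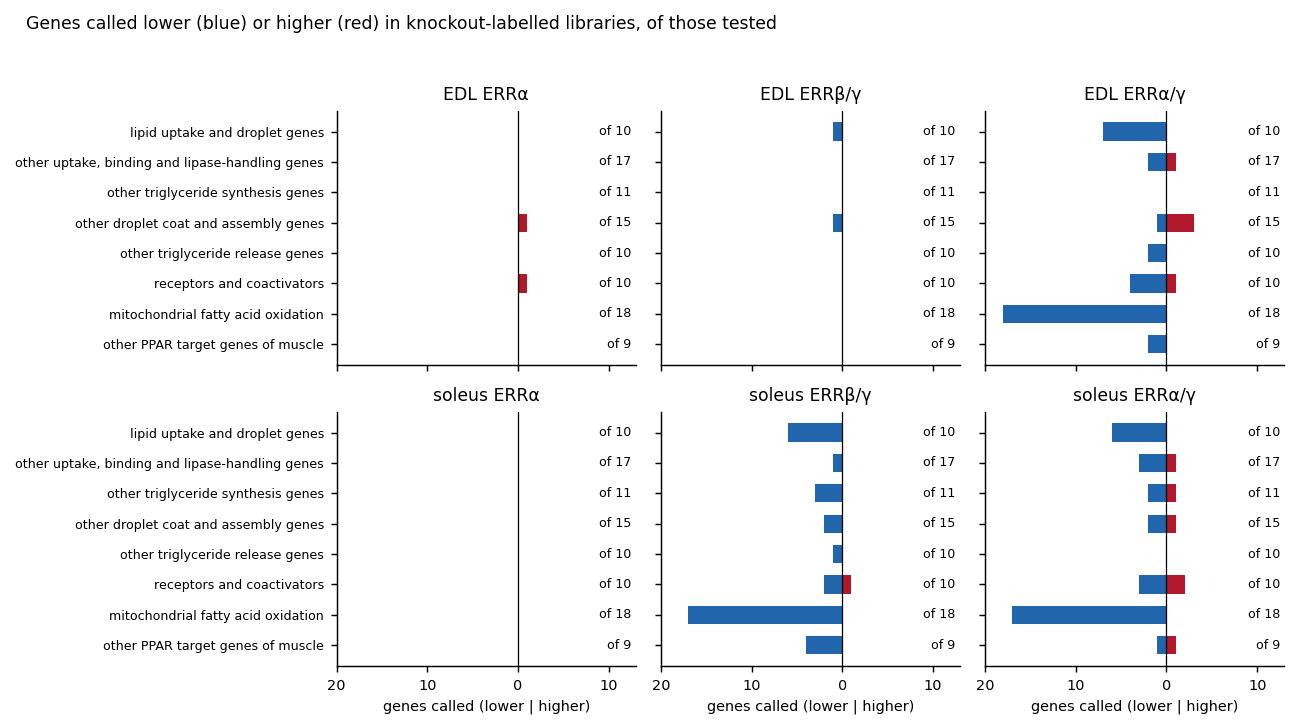
Number of genes called lower (blue, to the left) or higher (red, to the right) on the x axis for each gene list on the y axis, in the 6 comparisons, with the number tested at the right. The mitochondrial fatty acid oxidation list has 18, 17 and 17 genes lower in the panels with 7, 6 and 6 lipid uptake and droplet genes lower.

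Across the 12 group means, which carry the difference between the muscles as well as that between genotypes, the genes of the list differed in how closely they ran together. Pearson's r was 0.98 between Lpl and Dgat2, 0.98 between Plin5 and Dgat2 and 0.96 between Slc27a1 and Fabp3, and for Plin4 it was 0.31 with Dgat1 and at most 0.75 with any other. Among 11904 other genes with a value in every library, the closest to Lpl was Slc9a4 (r = 0.993), to Cd36 Impa2 (0.983), to Dgat2 Hsdl2 (0.994) and to Pnpla2 Pank1 (0.982). The closest to Plin5 was Hadha (0.992), the trifunctional protein subunit of beta-oxidation, and to both Slc27a1 (0.986) and Fabp3 (0.987) it was Eci1, an isomerase of beta-oxidation. For Plin2 it was Cx3cl1 (0.973), for Plin4 Gm5785 (0.939) and for Dgat1 Fbrsl1 (0.936). These are descriptions over 12 points, with no test.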

How the data were processed

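Total RNA of mouse soleus and EDL was sequenced as stranded libraries, per the labels' protocols. The deposited table holds log2 values that the authors quantile normalized, per the file headers and name. Partek 6.6 and the builds GRCm38.p6 and mm10 come from the submitters' processing notes. How reads were aligned and counted, and in what unit before the logarithm, is not given in the sources used here, so the depth is unknown. Of 45802 rows, 27904 hold no value and 27 with date-like names were left out.

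Genes were kept where their mean, with missing values at the table's lowest (-8.21), was above the 25th percentile of gene means (-5.24), which left 13404. Group means of all 36 libraries were fitted with limma 3.58.1 (R 4.3.3, intensity trend), missing values staying missing, and p-values were Benjamini-Hochberg adjusted over all genes of a comparison. The fit was tested on simulated data. Knockout or wild type was read from the mark for Cre in the column names, and the class of the EDL columns without a class letter from the number they share with a soleus column. That number, read as the animal's, ties 14 pairs of muscles, whose deviations correlated at -0.068 to 0.324 (median 0.097, 7 over 0.1), so the main fit has no block. Alternatives covered filters, missing values, pseudocount, scaling, spread, block and libraries left out. Named genes were all 10 members, the called genes of the lists and the genes of highest correlation over group means. The members and lists were chosen with earlier results of these data known.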

Additional observations from a re-analysis of the deposited data

Results flagged for a closer look

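The changes of 12 gene and comparison pairs differed between deletion classes by limma's test of the difference itself, each class set against its own wild types. In EDL, ERRalpha/ERRgamma minus ERRalpha, these were Lpl (-1.09 ± 0.26, adjusted p = 0.0102), Slc27a1 (-0.99 ± 0.26, 0.0171), Fabp3 (-2.08 ± 0.38, 0.000508), Plin5 (-1.31 ± 0.34, 0.0193) and Dgat2 (-1.58 ± 0.43, 0.0251). Plin5 also differed in EDL between ERRalpha/ERRgamma and ERRbeta/ERRgamma (-1.15 ± 0.34, 0.0358).

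In soleus, ERRalpha/ERRgamma minus ERRalpha, they were Fabp3 (-1.80 ± 0.38, 0.00374), Plin5 (-1.24 ± 0.34, 0.0285), Dgat2 (-1.46 ± 0.43, 0.0443) and Pnpla2 (-1.03 ± 0.30, 0.0411). For ERRbeta/ERRgamma minus ERRalpha in soleus they were Lpl (-1.13 ± 0.26, 0.0432) and Fabp3 (-1.80 ± 0.38, 0.0298). The comparisons share the wild types and knockout-labelled libraries of a class, so the 12 are not independent.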

How the results depend on the processing

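Of 3960 alternative values of the 10 genes 119 lost a call and 27 gained one. The sign changed in 104, and in 0 of these was either value called by limma, an example being Plin2 in ERRbeta/ERRgamma soleus. The calls in ERRalpha/ERRgamma EDL held in all. With the comparison's libraries alone, 0 genes were called in ERRbeta/ERRgamma soleus (6 in the main analysis), 0 for the soleus difference of ERRbeta/ERRgamma minus ERRalpha (2) and 0 among EDL wild types (1). Without the 3 libraries highest in Adipoq, ERRbeta/ERRgamma EDL had 2 calls (1), EDL ERRalpha/ERRgamma minus ERRalpha 3 (5), EDL ERRalpha/ERRgamma minus ERRbeta/ERRgamma 0 (1) and soleus wild types 0 (1). Without the library highest in leukocyte markers the EDL difference of ERRalpha/ERRgamma minus ERRbeta/ERRgamma had 2 calls and the soleus one of ERRbeta/ERRgamma minus ERRalpha 0. Both left-out sets were chosen after seeing the data. For EDL ERRalpha/ERRgamma minus ERRbeta/ERRgamma there were 2 with a filter at the 50th percentile, 0 with pseudocount 1 and 0 with no intensity trend. With no filter or with no trend, soleus ERRalpha/ERRgamma minus ERRalpha had 2 (4) and ERRbeta/ERRgamma minus ERRalpha 1 (2). Soleus wild types had 0 with missing values at the lowest, no filter, no trend or robust spread, and 2 with the 50th percentile or pseudocount 1. Leaving out 1 library each gave 0 to 1 for the ERRalpha/ERRgamma soleus minus EDL change (0), 2 to 5 for EDL ERRalpha/ERRgamma minus ERRalpha, 0 to 3 for ERRalpha/ERRgamma minus ERRbeta/ERRgamma there, 1 to 3 for soleus ERRalpha/ERRgamma minus ERRalpha, 0 to 3 for ERRbeta/ERRgamma minus ERRalpha there, and 0 to 1 among wild types of either muscle. The cause was not tested.

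With the animal as a replicate block (correlation 0.137), pairing soleus and EDL, EDL ERRalpha/ERRgamma minus ERRbeta/ERRgamma had 2 calls, Slc27a1 joining Plin5, and no other count changed. The labels' own replicate numbers could not be tied to the columns.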
